A study of Mus musculus with 4 samples.

Results

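The ligands Csf1, Csf2, Csf3 and Il34 and the receptor genes Csf1r, Csf2ra, Csf2rb and Csf3r, the colony-stimulating factor family, were followed through single-cell RNA sequencing of mouse bone tissue. Members were the matrix rows that carry these 8 symbols among 31053 genes, and all 8 were found. They were read in the 32217 barcodes with 1000 to 40000 UMIs (unique molecular identifiers, 1 for each captured transcript) and at most 10% mitochondrial UMIs. These barcodes held 247995254 UMIs, of which 136967 belonged to members (552 CPM, counts per 1000000 UMIs). Ctrl mice were wild-type and were not suspended, and HLU mice were wild-type and suspended by the tail for 28 days, so that their hind limbs bore no weight. Each group had 2 replicates, and every library came from tibiae and femurs that had been flushed of marrow and then digested with enzymes, so the blood cells counted are those left with the bone. The sources used here disagree on the age of the mice, so none is given. Values for single libraries are always in the order of replicate 1 and replicate 2.

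Colony-stimulating factors are secreted proteins that blood cell precursors need to survive, divide and mature. M-CSF, the product of Csf1, and IL-34 bind the receptor tyrosine kinase encoded by Csf1r, on which monocytes, macrophages and osteoclasts depend, and in bone M-CSF is needed together with RANKL to form osteoclasts. GM-CSF, from Csf2, binds the alpha chain encoded by Csf2ra, which signals through the common beta chain encoded by Csf2rb, and the same beta chain serves the receptors of IL-3 and IL-5. G-CSF, from Csf3, binds the receptor encoded by Csf3r and drives the production and release of neutrophils.

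Cells were assigned to 20 marker gates, each named for the type that its cells resemble by a fixed list of markers. A cell needed UMIs of at least 3 markers of a list and a score ahead of every other list, and no member was in any list. Between 13.3% and 20.3% of the cells of a library stayed ungated. Of the 10 leading genes of a gate 1 to 8 were its own markers, and the monocyte gate, led by Vcan and Saa3, had 1. The libraries differed widely in what they held. Gates of the skeletal side (chondrocytes, osteoblasts, stromal, mural and endothelial cells) held 45.7% and 33.2% of Ctrl cells but 1.28% and 1.57% of HLU cells, and the 3 neutrophil gates held 27.3% and 38.6% against 63.3% and 57.4%. HLU 2 also stood apart in depth, with 230 barcodes over 40000 UMIs against 6 to 17 in the other libraries and 267 under 1000 UMIs against 2143 to 2585. Any 2 libraries shared 13 to 21 passing barcodes, at most 0.275% of the smaller one.

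Levels are given in CPM, the counts (UMIs) of a gene per 1000000 UMIs of the same cells. They come from the 3′ ends of transcripts and are not scaled by length, so they are compared within a gene and not between genes. The 95% intervals of single libraries are exact Poisson intervals, those of shares exact binomial (Clopper-Pearson) intervals, and both cover counting error only. A gene is said to be called when edgeR's quasi-likelihood test over libraries gave it a Benjamini-Hochberg adjusted p under 0.05 among all genes of the comparison. Statements that the libraries of the groups overlap or lie apart only describe values. The share of all genes whose groups lie apart is not given here, so these statements are not read as results about the members.

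Promoter sequences, 250 bases before and 50 after the transcript start, are shown for a pair of receptor genes carried by neutrophil gates, Csf2ra and Csf3r, and for Csf1, a ligand with its highest mean level in stromal cells. They come from RefSeq on GRCm38.p6 and lie at chr19:61228369-61228668 (minus strand), chr4:126024409-126024708 (plus strand) and chr3:107760420-107760719 (minus strand). Capitals mark GAGGAAG, the core of a site for PU.1, the myeloid transcription factor encoded by Spi1, searched on both strands.
Csf2ra: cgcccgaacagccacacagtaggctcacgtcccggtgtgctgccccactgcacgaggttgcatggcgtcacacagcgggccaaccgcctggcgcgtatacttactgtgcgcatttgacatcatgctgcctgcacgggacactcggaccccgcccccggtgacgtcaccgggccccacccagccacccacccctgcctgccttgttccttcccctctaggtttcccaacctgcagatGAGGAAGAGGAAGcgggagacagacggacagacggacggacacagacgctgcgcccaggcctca
Csf3r: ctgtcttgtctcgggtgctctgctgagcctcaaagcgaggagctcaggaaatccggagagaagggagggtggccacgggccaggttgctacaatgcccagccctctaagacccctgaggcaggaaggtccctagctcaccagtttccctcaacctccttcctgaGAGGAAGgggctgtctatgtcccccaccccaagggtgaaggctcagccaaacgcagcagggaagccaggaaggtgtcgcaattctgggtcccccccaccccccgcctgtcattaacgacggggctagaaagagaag
Csf1: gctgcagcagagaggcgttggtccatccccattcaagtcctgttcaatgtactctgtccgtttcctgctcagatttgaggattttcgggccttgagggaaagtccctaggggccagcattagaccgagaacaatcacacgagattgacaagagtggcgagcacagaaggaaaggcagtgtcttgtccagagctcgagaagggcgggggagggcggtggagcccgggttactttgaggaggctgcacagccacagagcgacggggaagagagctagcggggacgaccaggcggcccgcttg

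The Csf2ra window held 2 overlapping matches, which begin 14 and 8 bases before the RefSeq start. The GENCODE start of Csf2ra (61228429) lies inside the first of these matches, so the second is within the GENCODE gene. In the Csf3r window 1 match began 86 bases before the RefSeq start, and the windows of Csf1 and Csf2 held none. The GENCODE start of Csf3r (126024550) lies inside the window and ahead of this match, which is thus within the GENCODE gene. The Csf2 window (chr11:54249850-54250149, minus strand) lies wholly upstream of the GENCODE start (54249667). It therefore does not cover the bases next to that start. For scale, 13.6% of the 32851 promoters in the table held at least 1 match. The exact letters GGGANTTCC (NF-kB type, in 1.68% of promoters) and TGANTCA (AP-1 type, in 7.81%) were found in none of these 4 windows. Other forms of such sites, among them longer ones of NF-kB type, were not searched for, so their absence is not shown. The matches describe the sequence and were not tested for binding.

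Over all passing barcodes the receptors made up more of the HLU transcriptomes and Il34 made up less. Of the 8 members 4 were called, against 23.2% of the 15385 genes tested. Csf1r, Csf2ra and Csf2rb rose, and Il34 fell. The median log2 fold change (HLU against Ctrl) was 1.47 over the members and 0.04 over all genes. In sums over all cells, more cells of a type and more RNA per cell cannot be told apart.

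Among the receptors, Csf1r stood at 21.6 and 37.8 CPM in the Ctrl libraries and at 82.5 and 103 in the HLU libraries. Csf2ra stood at 58.3 and 73.0 against 172 and 177, and Csf2rb at 27.1 and 39.9 against 82.0 and 260.5. Both HLU libraries were above both Ctrl libraries for each of the 3 genes, and for Csf2rb HLU 2 was far above the rest. The log2 fold changes were 1.73 (SE 0.38, edgeR adjusted p = 0.0313), 1.49 (SE 0.27, edgeR adjusted p = 0.0209) and 2.47 (SE 0.65, edgeR adjusted p = 0.0495). Csf3r, at 64.6 and 110.5 CPM against 313 and 151, was higher in both HLU libraries but missed the threshold (log2 fold change 1.46, SE 0.45, edgeR adjusted p = 0.0733). HLU 1 was the highest library for Csf3r, unlike for the other receptors.

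Of the ligands, Il34 stood at 5.42 and 5.02 CPM in Ctrl and at 0.882 and 0.171 in HLU, from 305, 295, 40 and 15 UMIs. The groups did not overlap, and the log2 fold change was -3.33 (SE 0.76, edgeR adjusted p = 0.0337). Csf1 stood at 77.2 and 45.8 against 15.1 and 30.2, also without overlap, but was not called (-1.34, SE 0.49, edgeR adjusted p = 0.108). Csf2, at 0.444 and 3.73 against 0.110 and 0.605, rested on 25, 219, 5 and 53 UMIs, and its groups overlapped (-2.36, SE 1.22, edgeR adjusted p = 0.220). Csf3 stood at 3.20 and 5.21 against 3.15 and 114, so that HLU 2 alone was high (3.94, SE 1.57, edgeR adjusted p = 0.132).

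These calls depended on single libraries, and the count of all genes called ranged from 848 to 7726 over the settings used. Without Ctrl 1 the adjusted p of the 4 called members lay between 0.138 and 0.324, and without Ctrl 2 between 0.0966 and 0.174, so none stayed called. Without HLU 1 the log2 fold changes of Csf3 and Csf3r were 4.97 and 1.01, that of Il34 moved to -4.70 and that of Csf2rb to 3.18. Without HLU 2 the log2 fold changes of Csf1 and Csf3r were -2.03 and 1.84. Il34 then stood at -2.56, Csf2rb at 1.29, and Csf3 turned to -0.42.

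The level that each library would have had at the pooled Ctrl level of every gate was also computed from its own mix of gates. At the Ctrl levels the HLU libraries would have held 62.1 and 92.3 CPM of Csf1r, and they held 1.33 and 1.12 times that. For Csf2ra the ratios were 1.34 and 1.31, and for Csf1 they were 0.623 and 1.43. Csf2rb stood at 1.22 and 3.30 times its level from the mix, Csf3r at 1.77 and 1.06 times, and Csf3 at 0.532 and 15.0 times. Il34 stood at 0.691 and 0.170 times. The levels of Csf1r and Csf2ra lay nearer to those given by the mix of gates than the Csf3 and Csf2rb levels of HLU 2 did. Csf2rb in HLU 1 (1.22) and Csf3r in HLU 2 (1.06) lay nearer still than Csf1r and Csf2ra in the same library. The part of the mix was not tested.

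**Figure D1:**
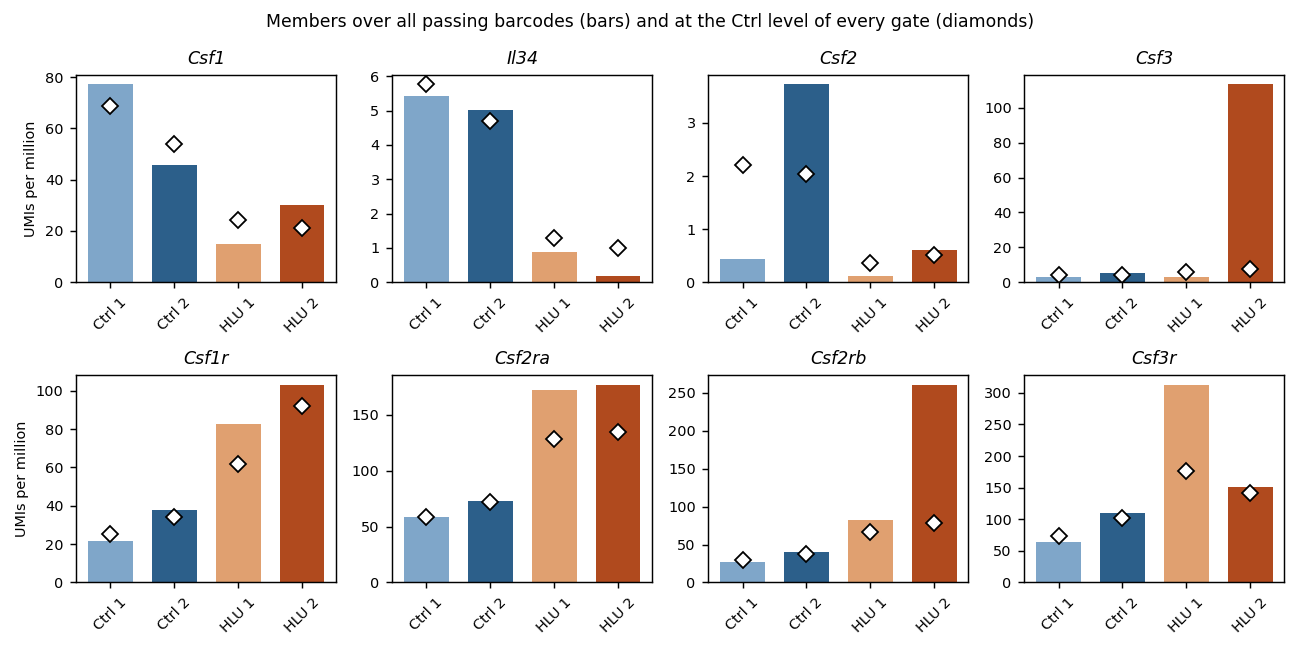
CPM of each member over all passing barcodes of the 4 libraries (bars, linear axes from 0), and the level that each library's mix of gates gives at the pooled Ctrl level of every gate (diamonds). For Csf1r and Csf2ra the bars of the HLU libraries lie at 1.12 to 1.34 times their diamonds, and for Csf3 in HLU 2 the bar (114) lies at 15.0 times its diamond.

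Within gates no HLU against Ctrl difference of a member was called by edgeR. The share of all genes called was itself low: 0.182% in haematopoietic progenitors, 0.0902% in granulocyte progenitors, 2.28% in immature neutrophils, 1.62% in mature neutrophils, 0.0% in monocytes, 1.3% in B cells, 0.771% in T and NK cells and 0.0% in chondrocytes. An unadjusted p under 0.05 was given to 4 of 8 members tested in chondrocytes and 2 of 5 in immature neutrophils. In haematopoietic progenitors, granulocyte progenitors and B cells it was given to 1 of 5 each. Of all genes, 1082 of 10462 had such a p in immature neutrophils and 414 of 6585 in haematopoietic progenitors. In granulocyte progenitors these were 528 of 9977 and in B cells 527 of 8839. DESeq2 called 1 member (Csf1r in chondrocytes, log2 fold change 2.64). For all genes of the monocyte gate edgeR gave 437 an unadjusted p under 0.05 and DESeq2 called 74, and in chondrocytes these numbers were 1898 and 339. Osteoblast and stromal gates, which held only 10 to 37 cells in the HLU libraries, were fitted as well. There 0.544% and 0.581% of all genes were called, with no member among them. In osteoblasts 3 of 4 members and 1322 of 7543 genes had an unadjusted p under 0.05 (edgeR). In stromal cells these were 3 of 7 members and 1905 of 10667 genes. DESeq2 called Csf1 in osteoblasts (2.18) and Csf1r in stromal cells (2.74), and its counts over all genes of these gates are not given here. Collagen and other skeletal transcripts made up 0.156% to 1.03% of the UMIs of blood cell gates tested in Ctrl and at most 0.0192% in HLU. The parts of free RNA and of mixed cells in this were not tested.

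The map of mean levels by gate, over libraries with 20 or more cells of a gate, shows Csf1 highest in stromal cells, Il34 in mural cells, Csf1r in monocytes, macrophages and osteoclasts, and Csf3r in mature neutrophils. Csf2rb is highest there in basophils and mast cells, for which only the HLU libraries had 20 or more cells.

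**Figure D2:**
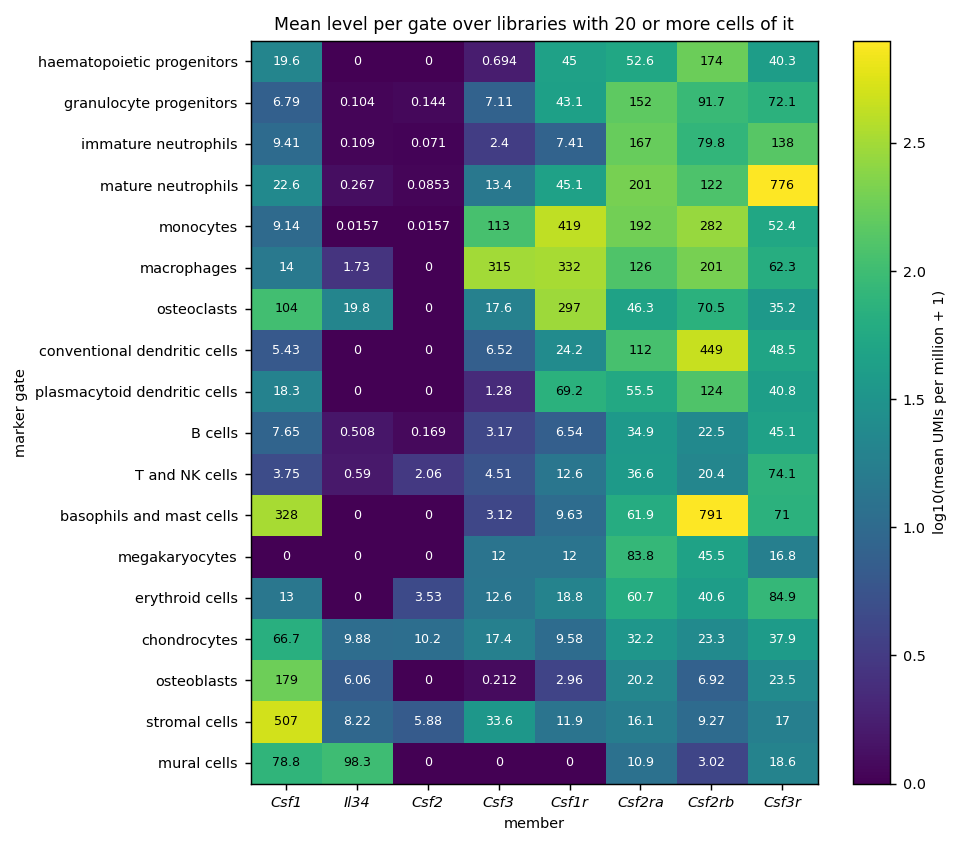
Mean CPM of each member (columns) in each marker gate (rows), over the libraries with 20 or more cells of the gate, with colour on a log10(mean + 1) scale. Levels are to be read down a column: Csf3r reaches 776 in mature neutrophils and 138 in immature neutrophils, and Il34 reaches 98.3 in mural cells.

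Csf1 (chr3:107741048-107760469, minus strand, GENCODE M21 on mm10) was a transcript of stromal cells, osteoblasts and basophils. The mean level was 507 CPM in stromal cells (SD 539, n = 3 libraries with 20 or more cells), 328 in basophils and mast cells (SD 12.6, n = 2) and 179 in osteoblasts (SD 142, n = 3). Osteoclasts (103.5, n = 1, Ctrl 2 only), mural cells (78.8, SD 49.5, n = 2), chondrocytes (66.7, SD 67.3, n = 4) and mature neutrophils (22.6, SD 7.64, n = 4) followed. The ranges of neighbours overlapped all along this order. Most osteoclast-gated cells of Ctrl 2 also passed the marker count and score of another list, as given under Csf1r below. The 5 and 3 osteoclast-gated cells of the HLU libraries held 0 Csf1 UMIs.

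Per library, the stromal gate held Csf1 at 201 (95% interval 192 to 210) and 190 (179 to 201) CPM in Ctrl and at 249 (178 to 339) and 1129 (1036 to 1228) in HLU. HLU 2 stood far above the other 3 libraries, whose intervals lay close together. The gate had 1123 and 598 cells in Ctrl but 18 and 37 in HLU, and 10 cells held 39 of the 40 Csf1 UMIs of HLU 1 and 444 of the 541 of HLU 2. The log2 fold change of 1.52 (SE 0.73, edgeR adjusted p = 0.331) was not called. It was 2.24 without HLU 1 and -0.28 without HLU 2.

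In osteoblasts Csf1 stood at 114 and 82.1 CPM in Ctrl and at 342 and 733 in HLU, from 222, 154, 20 and 10 cells. Both HLU libraries lay above both Ctrl libraries, but the change was not called (log2 fold change 2.16, SE 0.45, edgeR adjusted p = 0.0922). The log2 fold change was 2.58 without HLU 1 and 1.47 without HLU 2. DESeq2 called the change (2.18). The osteoblast and stromal gates did not hold the same cells in both groups. Dcn, a proteoglycan of fibroblasts and tendon, stood at 26434 and 24037 CPM in stromal cells of Ctrl and at 1158 and 5880 in HLU. Cxcl12, a chemokine of marrow stroma, stood at 390 and 246 against 1948 and 747, and Lepr, a marker of the same cells, at 22.6 and 25.9 against 181 and 58.4. In the osteoblast gate Dcn stood at 18146 and 23982 CPM in Ctrl and at 1182 and 2273 in HLU. Bglap, a marker of the osteoblast list, stood there at 526 and 647 against 2511 and 1628. How much these shifts in make-up contribute to the Csf1 levels was not tested. Stromal cells with an Lepr or Adipoq UMI held Csf1 at 262, 207, 116 and 1612 CPM in the 4 libraries, and those without at 193, 187, 557 and 632, with no order common to all libraries.

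Basophils and mast cells held Csf1 at 115 (46.3 to 237) and 186 (108 to 297) CPM in Ctrl, from 9 and 15 cells, and at 319 (250 to 402) and 337 (287 to 393) in HLU, from 30 and 63 cells. Both HLU libraries lay above both Ctrl libraries, whose few cells gave wide intervals. Against T and NK cells of the HLU libraries, the only ones with enough cells, basophils and mast cells were higher by a log2 fold change of 6.92 (SE 0.48, edgeR adjusted p = 6.71e-15). In that contrast 2 of 4 members tested were called, against 24.1% of all genes. Csf1 was also higher in stromal cells than in chondrocytes (2.40, SE 0.25, edgeR adjusted p = 0.000355), where 3 of 8 members and 24.4% of all genes were called. Osteoblasts exceeded chondrocytes by 1.88 (SE 0.39, edgeR adjusted p = 0.0406), the only call among 5 members against 7.22% of all genes. That call was lost without Ctrl 1 (2.52, edgeR adjusted p = 0.0833) and without Ctrl 2 (2.01, edgeR adjusted p = 0.365).

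In mature neutrophils Csf1 lay at 28.0 and 29.1 CPM in Ctrl and at 20.9 and 12.5 in HLU, and in haematopoietic progenitors at 33.3 and 29.0 against 3.59 and 12.5, the latter from 12, 16, 2 and 10 UMIs. A single progenitor of Ctrl 2 held 13 of its 16 UMIs, so the lack of overlap there rested on 1 cell. In both gates the direction was opposite to that in osteoblasts and stromal cells, and neither change was called (log2 fold changes -0.69 and -1.96). Skeletal transcripts moved the same way in these gates, from 0.275% and 0.255% of UMIs in Ctrl to 0.00745% and 0.00494% in HLU for mature neutrophils. Their part in the Csf1 levels was not tested. Csf1 was higher in mature than in immature neutrophils by a log2 fold change of 1.34 (SE 0.32, edgeR adjusted p = 0.00539).

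The shares of Csf1 UMIs held by the gates differed between the groups, as did the mix of cells. The parts of the mix and of the level per cell in these shares were not tested. Skeletal gates held 75.4% (74.1% to 76.7%) and 64.6% (62.8% to 66.4%) of the Csf1 UMIs of the Ctrl libraries, but 23.4% (20.3% to 26.7%) and 33.0% (31.2% to 34.8%) of those of the HLU libraries. Neutrophil gates held 3.45% and 8.03% against 39.5% and 26.9%. The skeletal share differed by -41.8 percentage points (HLU against Ctrl), with p = 0.333 in the two-sided exact permutation test, the smallest value that 2 libraries against 2 allow. Even so, skeletal gates, with 1.28% and 1.57% of HLU cells, held a far larger share of Csf1 than of cells there.

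**Figure D3:**
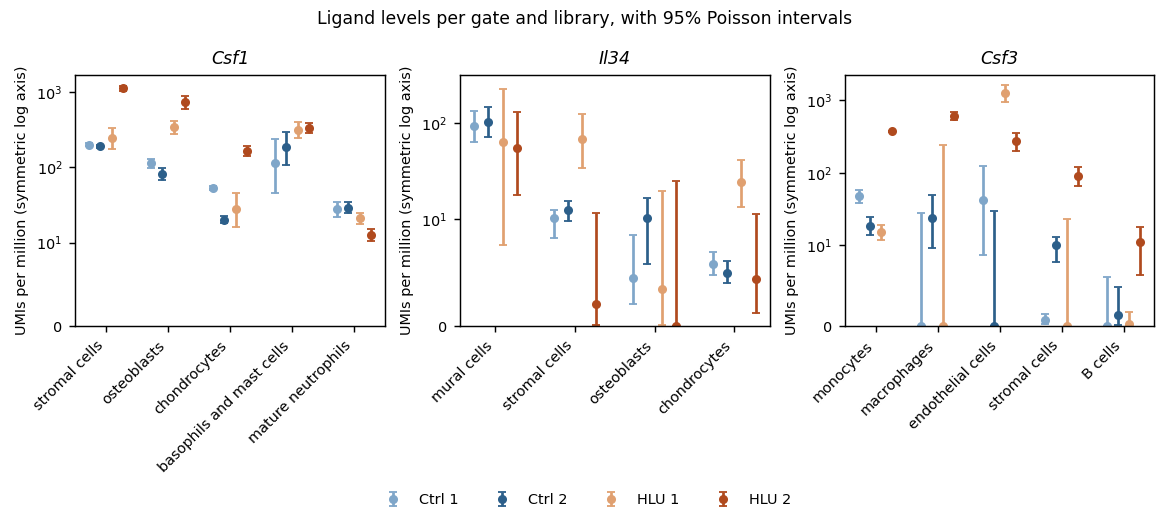
Csf1, Il34 and Csf3 per gate and library in CPM on a symmetric log axis (linear below 10), with 95% exact Poisson intervals, blue for Ctrl and orange for HLU. HLU 2 is the highest library for Csf1 in stromal cells (1129) and for Csf3 in monocytes (372), and the intervals of all 4 libraries overlap for Il34 in mural cells.

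Il34 (chr8:110741829-110805924, minus strand), whose product is an alternative ligand of the same receptor, was highest in mural cells, the contractile cells around vessels, where a library had 20 or more of them. Its level there was 93.4 (63.9 to 132) and 103 (71.1 to 145) CPM in Ctrl and 62.8 (7.61 to 227) and 55.2 (17.9 to 129) in HLU, from 32, 33, 2 and 5 UMIs. The intervals overlapped, so no difference was detectable with so few UMIs. Mural cells were clear of every other gate in the libraries with at least 20 cells. Stromal cells held Il34 at 10.2 and 12.4 CPM against 68.5 and 2.09, and chondrocytes at 5.80 and 4.98 against 24.4 and 4.38. In both gates HLU 1 was highest and HLU 2 lowest, so the groups overlapped. The test did not call Il34 in chondrocytes (log2 fold change 0.97, edgeR adjusted p = 0.537) or stromal cells (0.50, edgeR adjusted p = 0.821).

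Blood cell gates tested within libraries held Il34 at 2.36 CPM or less in every library. Skeletal gates held 83.6%, 75.6%, 70% and 73.3% of its UMIs in the 4 libraries. The share of skeletal cells was lower in the HLU libraries too, as given above. The share of Il34 in skeletal gates differed by -7.93 percentage points (exact permutation p = 0.333, the smallest possible).

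Csf2 (chr11:54247271-54249667, minus strand), the GM-CSF gene, was close to the floor of these data. The chondrocyte gate held most of it, with 22, 196, 0 and 27 UMIs, or 1.10 and 10.3 CPM in Ctrl and 0 and 29.6 in HLU. The 0 UMIs of HLU 1, with 47 cells, allow a level of up to 5.22 CPM, that of 3 counts, and the exact Poisson interval ends at 6.42. Few cells carried the transcript: in Ctrl 2 the 10 highest cells held 131 of the 196 UMIs and 1 cell held 42, and without these 10 cells the level was 3.44. Groups overlapped, and the change in chondrocytes was not called (log2 fold change 1.26, edgeR adjusted p = 0.692).

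Csf2 was lower in stromal cells than in chondrocytes by a log2 fold change of -2.64 (SE 0.57, edgeR adjusted p = 0.0125). The call was lost without Ctrl 1 (-2.71, edgeR adjusted p = 0.0672) and without Ctrl 2 (-1.42, edgeR adjusted p = 0.223), and without HLU 2 the value was -3.57. T and NK cells, a known source of GM-CSF, held 0, 2, 2 and 0 Csf2 UMIs in 56, 135, 91 and 413 cells. Skeletal gates held 100% (25 of 25 UMIs) and 91.3% of Csf2 in Ctrl and 40.0% (2 of 5 UMIs) and 66.0% in HLU.

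**Figure D4:**
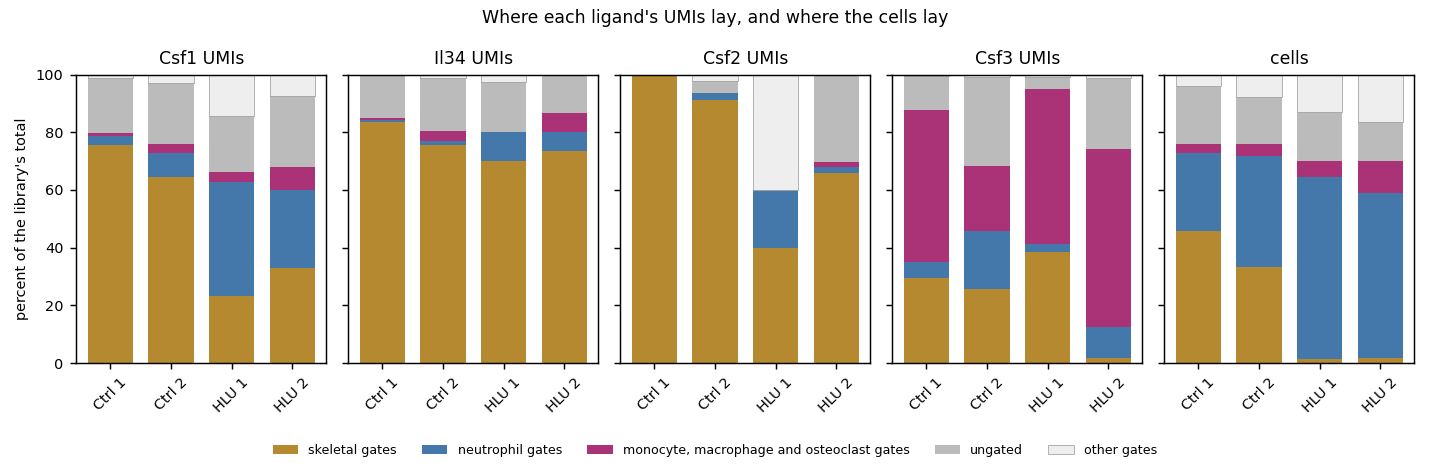
Percent of each ligand's UMIs, and of cells, in skeletal gates (brown), neutrophil gates (blue), monocyte, macrophage and osteoclast gates (purple), ungated cells (grey) and other gates (white), for each library. For Csf1 the skeletal share falls from 75.4% and 64.6% in Ctrl to 23.4% and 33.0% in HLU, and for Csf3 the purple share is largest in HLU 2 (61.6%).

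Csf3 (chr11:98701263-98703629, plus strand), the G-CSF gene, was abundant in 1 library. The monocyte gate held it at 47.7 (38.5 to 58.4) and 18.6 (14.0 to 24.3) CPM in Ctrl and at 15.1 (11.9 to 18.9) and 372 (362 to 381) in HLU. HLU 2 was high and HLU 1 lay below both Ctrl libraries, so the groups overlapped and no call was made (log2 fold change 2.53, SE 1.35, edgeR adjusted p = 0.825). Those levels rested on 93, 54, 77 and 5917 UMIs. In Ctrl 1 a single cell held 66 of the 93 and in HLU 1 a single cell held 46 of the 77.

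A larger share of monocytes carried the transcript in HLU 2. Csf3 UMIs were found in 12 of 176, 13 of 254, 11 of 413 and 732 of 1001 monocyte-gated cells, or 6.82%, 5.12%, 2.66% and 73.1%. When each cell was thinned to 1000 UMIs these shares were 2.16%, 1.25%, 0.924% and 25.2%. B cells, which should lack the transcript, had a Csf3 UMI in 2.22% of cells in HLU 2 (1.16% thinned), with a median of 2569 UMIs per cell against 14341 in monocytes. In HLU 2 the 10 highest monocytes held only 640 of the 5917 UMIs, and the level without them was 337.

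Csf3 UMIs were found in other gates of HLU 2 as well. Macrophages held it at 0, 24.2, 0 and 606 CPM in the 4 libraries, from 11, 22, 1 and 59 cells. Mature neutrophils stood at 3.27, 11.5, 0.139 and 38.5, and granulocyte progenitors at 0, 0.865, 0 and 27.6. HLU 2 was the highest library in each of these gates. Erythroid cells of HLU 2 stood at 32.4 (25.2 to 41.1), near the levels of its mature neutrophils and granulocyte progenitors. T and NK cells stood at 18.0 (11.7 to 26.6), below its mature neutrophils (34.6 to 42.7), and B cells were lower still (95% interval 6.29 to 17.9). Without the 10 highest cells of each gate, the HLU 2 level was 7.10 CPM in erythroid cells. It was 29.3 in mature neutrophils and 13.9 in granulocyte progenitors. Whether these neutrophil and progenitor gates express Csf3 was not tested, and no expression is read in them. Of the ungated cells of HLU 2, 305 had a Csf3 UMI, and in 184 of them the monocyte list scored highest, with 1914 of their 2435 Csf3 UMIs. The endothelial gate, with 8, 8, 8 and 14 cells, stood at 42.8 and 0 CPM in Ctrl and at 1239 and 270 (202 to 353) in HLU. Both HLU libraries lay above both Ctrl libraries. In HLU 1 a single cell held 52 of the 55 UMIs, while in HLU 2 the 53 UMIs were in 7 cells, with at most 17 in 1 cell. The gate had too few cells to be fitted.

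Receptor levels were set side by side in monocytes of HLU 2 with and without a Csf3 UMI. Csf1r stood at 306 and 283 CPM, Csf2ra at 215 and 183, Csf2rb at 451 and 435 and Csf3r at 55.8 and 63.1, in 732 cells with and 269 cells without, whose median depth was 15296 and 11537 UMIs. These are values of 1 library and were not tested. Csf3 was higher in monocytes than in mature neutrophils by 2.08 (SE 0.66, edgeR adjusted p = 0.0257), a call lost without Ctrl 1 (1.83, edgeR adjusted p = 0.0922) and larger without Ctrl 2 (2.98). In mature neutrophils it was higher than in immature ones by 2.88 (SE 0.48, edgeR adjusted p = 0.000626). Conventional dendritic cells, compared in the HLU libraries only, held less Csf3 than monocytes by -4.87 (SE 0.55, edgeR adjusted p = 3.28e-05). Contrasts with neutrophil gates compare the levels found there, which are not read as expression of Csf3, as stated above.

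Monocyte, macrophage and osteoclast gates held 52.8% (45.2% to 60.2%) and 22.5% (17.99% to 27.6%) of the Csf3 UMIs in Ctrl and 53.8% (45.3% to 62.2%) and 61.6% (60.7% to 62.6%) in HLU. The difference of 20.1 percentage points (exact permutation p = 0.333, the smallest possible) turned to -15.8 when the 10 cells with most Csf3 were left out of each gate.

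Csf1r (chr18:61100598-61132149, plus strand) marked the monocyte lineage. Monocytes held it at 408 (381 to 438) and 431 (408 to 456) CPM in Ctrl and at 537 (517 to 558) and 301 (292 to 309) in HLU. HLU 1 was highest and HLU 2 lowest, with the Ctrl libraries between them, so the groups overlapped (log2 fold change -0.06, SE 0.36, edgeR adjusted p = 0.971). Macrophages held 353, 445, 196 and 219 CPM, from 11, 22, 1 and 59 cells. In the osteoclast gate the level was 68.8 and 297 in Ctrl and 695 and 489 in HLU, from 18, 30, 5 and 3 cells. Of these cells 17, 26, 2 and 0 also passed the marker count and score of another list. In Ctrl 1 a single cell held 16 of the 21 Csf1r UMIs of the gate, and in Ctrl 2 a single cell held 65 of the 135. Both HLU libraries lay above both Ctrl libraries, and no test was made with so few HLU cells.

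Csf1r UMIs were also found in mature neutrophils, at 23.3 (17.9 to 29.7), 27.9 (23.4 to 32.9), 28.2 (24.5 to 32.4) and 101 (94.7 to 108) CPM. HLU 2 stood apart, while HLU 1 and the Ctrl libraries had overlapping intervals. The thinned share of mature neutrophils with a Csf1r UMI was 2.40%, 2.92%, 3.22% and 9.80% (4.80%, 6.49%, 6.91% and 28.6% before thinning), against 0% to 0.760% of B cells thinned. T and NK cells held Csf1r at 0, 26.5, 2.36 and 21.6 CPM in the 4 libraries, and erythroid cells at 0, 10.6, 3.95 and 41.9. The thinned share of erythroid cells with a Csf1r UMI was 0%, 2.51%, 0.202% and 2.82%. The part of free RNA in the neutrophil levels was not tested. The change in mature neutrophils was not called (log2 fold change 1.61, SE 0.73, edgeR adjusted p = 0.522), and its value was 2.34 without HLU 1. Immature neutrophils lay lower, at 3.20, 4.79, 6.31 and 15.3 CPM. Their change was not called either (log2 fold change 1.49, and 2.08 without HLU 1).

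In the few skeletal cells of HLU Csf1r was also above Ctrl. Stromal cells held 3.73 and 2.67 CPM in Ctrl and 24.9 and 29.2 in HLU, from 36, 17, 4 and 14 UMIs, and chondrocytes 1.15 and 3.35 against 17.4 and 16.4. The groups did not overlap in either gate, but edgeR called neither (log2 fold changes 2.73, adjusted p = 0.0582, and 2.61, adjusted p = 0.197). HLU libraries also held a larger share of monocytes, and the part of their free RNA in these levels was not tested.

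Csf1r was higher in mature than in immature neutrophils by a log2 fold change of 2.66 (SE 0.17, edgeR adjusted p = 3.01e-06). In that contrast all 6 members tested were higher in mature cells, against 64.4% of all genes called in either direction. Monocytes exceeded mature neutrophils by 2.64 (SE 0.53, edgeR adjusted p = 0.00360), and by 3.30 without HLU 2. In the HLU libraries, the only ones with enough of them, conventional dendritic cells lay below monocytes by -4.04 (SE 0.39, edgeR adjusted p = 8.05e-06). There 3 of 6 members and 16.7% of all genes were called. Macrophages and monocytes were set against each other in the 2 libraries with enough cells, with 6.75% of all genes called and no member among 6 (edgeR, 1 at an unadjusted p under 0.05), and for Csf1r the log2 fold change was -0.35 (SE 0.59).

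**Figure D5:**
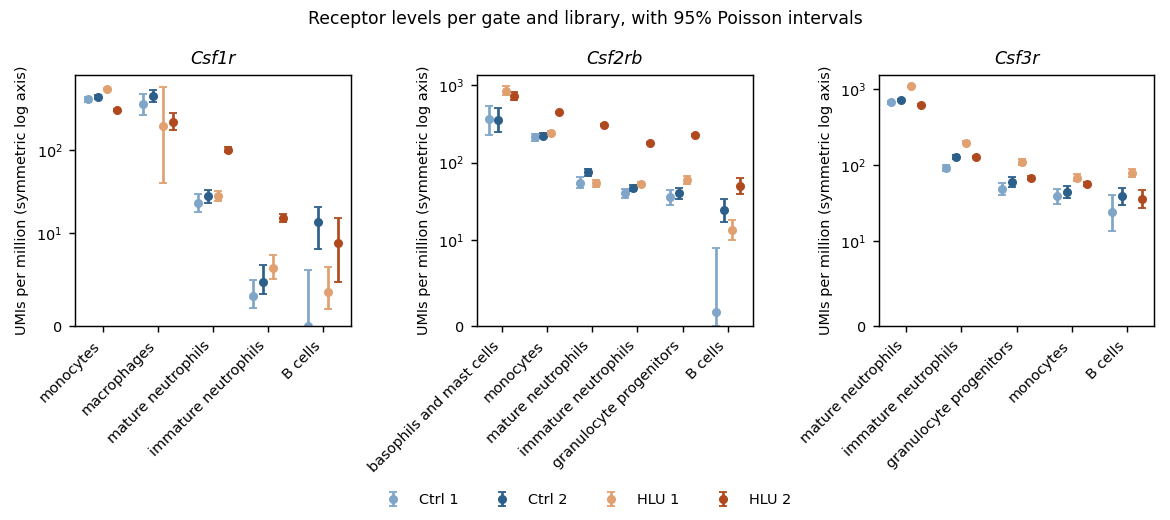
Csf1r, Csf2rb and Csf3r per gate and library in CPM on a symmetric log axis (linear below 10), with 95% exact Poisson intervals, blue for Ctrl and orange for HLU. Csf2rb of HLU 2 lies above the other libraries in monocytes (447), mature neutrophils (305), immature neutrophils (179) and granulocyte progenitors (231), and Csf3r in monocytes lies in the range of B cells.

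Csf2ra (chr19:61223957-61228429, minus strand), the GM-CSF-specific chain whose promoter window holds the overlapping GAGGAAG letters, was found across the neutrophil and monocyte gates. It stood at 189 and 169 CPM in Ctrl and 228 and 216 in HLU in mature neutrophils, and at 140, 193, 227 and 208 in monocytes. Immature neutrophils held 167, 150, 184 and 165 and granulocyte progenitors 139, 119, 138 and 212. In mature neutrophils and monocytes both HLU libraries lay above both Ctrl libraries, and in the other 2 gates the groups overlapped. The ranges of these 4 gates overlapped with each other, and in none of them was the HLU against Ctrl change called (log2 fold changes 0.14 to 0.45). In B cells the level was 14.7 and 21.7 in Ctrl and 56.5 and 46.8 in HLU, without overlap. The log2 fold change there, 1.33 (SE 0.35, edgeR adjusted p = 0.245), was not called. It was 1.21 without HLU 1 and 1.44 without HLU 2. Neutrophil transcripts moved the same way in B cells. S100a8 and S100a9 made up 0.347% and 0.758% of B cell UMIs in Ctrl and 2.38% and 2.27% in HLU, and their part was not tested.

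Over the gates with 20 or more cells the mean level of Csf2ra ran from 201 CPM in mature neutrophils to 34.9 in B cells, 16.1 in stromal cells and 10.9 in mural cells. Mature exceeded immature neutrophils by 0.36 (SE 0.13, edgeR adjusted p = 0.0337), a call lost without Ctrl 2 (0.42, edgeR adjusted p = 0.0582), without HLU 1 (0.36, edgeR adjusted p = 0.135) and without scaling by TMM factors (0.26). Monocytes against mature neutrophils gave -0.95 (SE 0.15, edgeR adjusted p = 0.00130) after TMM scaling but -0.07 (edgeR adjusted p = 0.713) on plain library totals, the scale of the levels above, so no direction is given. In that contrast 5 of 6 members and 70.7% of all genes were called. Of the called genes 3571 were higher and 3407 lower in monocytes after TMM scaling, and 5512 and 1575 on library totals, where the median log2 fold change of all genes was 0.93 in place of 0.06. Csf2ra was lower in conventional dendritic cells than in monocytes, both of the HLU libraries (-1.01, SE 0.32, edgeR adjusted p = 0.0442), and lower in stromal cells than in chondrocytes (-0.81, SE 0.18, edgeR adjusted p = 0.0129). The former was not called on library totals (-0.99, edgeR adjusted p = 0.0532), and the latter was lost without Ctrl 1 (-1.02, edgeR adjusted p = 0.0854) and without Ctrl 2 (-0.68, edgeR adjusted p = 0.258).

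Csf2rb (chr15:78325752-78353847, plus strand), the shared signalling chain, stood in basophils and mast cells at 362 (227 to 548) and 360 (248 to 506) CPM in Ctrl and at 855 (739 to 985) and 728 (653 to 808) in HLU. The HLU libraries were above the Ctrl libraries, whose 9 and 15 cells were too few to be fitted. Conventional dendritic cells stood at 455, 583, 492 and 407, from 10, 14, 20 and 63 cells, with overlapping groups. They were the highest gate in both Ctrl libraries, and basophils and mast cells in both HLU libraries. Basophils and mast cells exceeded T and NK cells by 4.44 (SE 0.39, edgeR adjusted p = 4.32e-12).

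Over the neutrophil series Csf2rb was highest in HLU 2. Granulocyte progenitors held 35.5 and 40.4 CPM in Ctrl and 60.1 and 231 in HLU, immature neutrophils 40.3 and 47.2 against 53.1 and 179, and mature neutrophils 55.2 and 75.3 against 54.4 and 305. HLU 1 lay above both Ctrl libraries in granulocyte progenitors, where its interval (53.8 to 66.9) was clear of theirs (28.4 to 43.8 and 33.9 to 47.6), slightly above both in immature neutrophils and below both in mature neutrophils. Monocytes stood at 213 and 223 against 245 and 447, again with HLU 2 highest. No change was called with all libraries, and the log2 fold changes were 1.66 (SE 0.59, edgeR adjusted p = 0.793), 1.49 (SE 0.62, edgeR adjusted p = 0.482), 1.76 (SE 0.88, edgeR adjusted p = 0.553) and 0.63 (SE 0.39, edgeR adjusted p = 0.825) in the 4 gates in this order. Without HLU 1 the log2 fold changes were 2.22 in granulocyte progenitors, 2.20 in immature neutrophils and 1.02 in monocytes.

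The same was seen in shares of cells. Mature neutrophils with a Csf2rb UMI made up 5.51%, 6.68%, 5.17% and 26.4% after thinning (11.3%, 16.0%, 12.4% and 65.3% before), and B cells 0.214%, 1.15%, 1.21% and 2.64% after thinning. Both chains of the GM-CSF receptor were found together in 46.0%, 51.2%, 62.7% and 83.8% of monocytes and in at most 3.10% of B cells. The former shares were not thinned, and the median depth of monocytes, 9396, 9419, 11408 and 14341 UMIs, had the same order, so no change is read from them.

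In chondrocytes 1 cell of Ctrl 1 had 251 Csf2rb UMIs among its 4828, and no UMI of Csf2ra or Csf2rb2. It held 251 of the 300 Csf2rb UMIs of the gate in that library, whose level was 15.0 CPM with it and 2.45 without it. Over all barcodes of Ctrl 1 the level was 22.6 without that cell in place of 27.1.

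Csf2rb2 (chr15:78282507-78305721, minus strand), a near-identical gene that encodes the mouse beta chain specific to IL-3, lies 20030 bases from Csf2rb on the opposite strand. Reads that match both cannot be placed in either, so the split between them is uncertain. Csf2rb2 rose over all barcodes by a log2 fold change of 1.55 (SE 0.34, edgeR adjusted p = 0.0317). The ratio of Csf2rb to Csf2rb2 UMIs was 4.13, 3.81 and 3.87 in Ctrl 1, Ctrl 2 and HLU 1 but 10.1 in HLU 2, so the excess of HLU 2 was larger in Csf2rb. In monocytes the ratios were 2.73, 3.17, 3.01 and 7.72. Csf2rb2 was higher in monocytes than in mature neutrophils (1.91, SE 0.37, edgeR adjusted p = 0.00293), and Csf2rb was not called there (0.69, SE 0.32, edgeR adjusted p = 0.0901) unless plain totals were used (1.56). Csf2rb itself was higher in mature than in immature neutrophils by 0.59 (SE 0.16, edgeR adjusted p = 0.0108), or 0.56 without Ctrl 2 (edgeR adjusted p = 0.0503).

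Csf3r (chr4:126024550-126044440, plus strand), the receptor that drives neutrophil output, was highest in mature neutrophils. In mature neutrophils it stood at 676 (646 to 708) and 722 (699 to 746) CPM in Ctrl and at 1088 (1064 to 1112) and 616 (600 to 632) in HLU. Immature neutrophils held 93.0 and 130 against 199 and 128, and granulocyte progenitors 48.6 and 60.5 against 111 and 68.7. HLU 1 was the highest library in all 3 gates, and HLU 2 lay within or below the Ctrl range in the first 2. Mature neutrophils exceeded immature ones by a log2 fold change of 2.60 (SE 0.12, edgeR adjusted p = 9.26e-07), and their range was clear of every other gate.

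No HLU against Ctrl change of Csf3r was called in the neutrophil gates, with log2 fold changes of 0.36 (SE 0.36) in mature neutrophils, 0.53 (SE 0.30) in immature neutrophils and 0.51 (SE 0.38) in granulocyte progenitors, the last of which was -0.05 without HLU 1. Thinned shares of mature neutrophils with a Csf3r UMI were 45.8%, 46.9%, 60.8% and 45.5%. Monocytes lay below mature neutrophils by -4.75 (SE 0.16, edgeR adjusted p = 1.17e-05). Their level of 38.9, 44.8, 68.6 and 57.4 CPM lay within the range of that of B cells, 24.5, 39.3, 80.2 and 36.5. In HLU 2 the intervals of both gates were apart (53.7 to 61.2 and 27.3 to 47.7). The thinned share of cells with a Csf3r UMI was 3.91%, 5.46%, 7.29% and 6.41% in monocytes and 2.64%, 3.18%, 5.57% and 1.49% in B cells (25%, 33.5%, 44.6% and 50.2% against 8.28%, 10.9%, 16.7% and 4.88% before thinning), higher in monocytes in all 4 libraries. The part of free RNA in the monocyte level was not tested. Csf3, the ligand, and Csf3r, its receptor, had their highest mean levels in different gates among those with 20 or more cells, the macrophage and monocyte gates and the mature neutrophil gate.

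Of 43 partner genes of the family (receptor-proximal signalling, JAK and STAT proteins, feedback targets, the beta common family, transcription factors of the receptor genes, and shedding enzymes and other receptors), 41 were tested over all barcodes, and 12 rose and 5 fell, against 23.2% of all genes called. Their median log2 fold change was 0.53, and that of all genes 0.04. Of the 14 receptor-proximal partners of Csf1r 9 rose and 1 fell, with Pik3cg (2.10, edgeR adjusted p = 0.00737), a kinase subunit of leukocytes, and Syk (1.71, edgeR adjusted p = 0.0181), a kinase downstream of immune receptors, among them. None of the 6 JAK and STAT genes was called (edgeR). Klf4, a transcription factor of monocytes and of skeletal and vessel wall cells, fell by 4.37 on the log2 scale (edgeR adjusted p = 0.00368), and the feedback inhibitors Socs2 (-3.32) and Spry2 (-2.15) fell too. In these sums, too, the mix of cells and the level per cell cannot be told apart.

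Within gates few partners were called. Klf4 fell in immature neutrophils (log2 fold change -4.55, edgeR adjusted p = 0.00515) and in mature neutrophils (-3.79, edgeR adjusted p = 0.0158), the only call among 38 and 37 partners, against 2.28% and 1.62% of all genes. Skeletal transcripts fell in the same gates, and their part was not tested. In stromal cells Sdc1, a syndecan, rose by 3.13 and Jak2, the kinase of the beta chain, by 2.43 (edgeR adjusted p = 0.0268 for both), among 37 tested, against 0.581% of all genes, with the make-up of that gate shifted as described.

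Between gates the counts of partners called are set against the share of all genes called. Mature neutrophils were higher than immature ones for 26 of 36 partners and lower for 3, against 64.4% of all genes, with Adam17, the sheddase of Csf1r (2.03), Pim1 (2.35) and Dusp6 (2.02), both targets of cytokine signalling, among the higher. Monocytes were higher than mature neutrophils for 8 of 38 and lower for 19, close to the 70.7% of all genes, with Irf8 (4.84), a transcription factor of the monocyte line, among the higher and Jak1 (-2.25) and Stat3 (-1.82) among the lower. This split is on the TMM scale. Macrophages were higher than monocytes for 3 of 39, close to the 6.75% of all genes, among them Src (6.05). Conventional dendritic cells of the HLU libraries differed from monocytes for 20 of 38 (9 higher), against 16.7% of all genes, with Socs2 (7.12), Stat5a (2.88) and Jak2 (2.42) higher and Fcer1g (-2.03) lower. Basophils and mast cells differed from T and NK cells for 19 of 34 (12 higher), against 24.1% of all genes, with Csf2rb2 (6.20), Cebpa (6.19) and Il3ra, the alpha chain for IL-3 (4.20), among the higher. Osteoblasts differed from chondrocytes for 3 of 33, close to the 7.22% of all genes, with Ptprz1, another receptor of IL-34, higher (5.02). Stromal cells differed for 13 of 37, against 24.4% of all genes, with Adam10 (1.13) higher and Socs2 (-1.39) and Stat5a (-1.12) lower. Higher and lower calls over all genes were 271 and 374 for osteoblasts and 1357 and 1557 for stromal cells, against 354 and 307 and 2730 and 1110 on library totals.

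For each member the 4 genes with the most similar level over 18 gates were found among 12757 genes, by Pearson's r of mean log2(CPM + 1). These values are descriptive, since gates of a library share its depth and free RNA. Csf3r was most like Il1f9 (r = 0.947), followed by Tmcc1, Sh2d3c and Pxn. Il34 was most like Tbx3 (r = 0.967), Smarcd3, Nr2f2 and Zfp37, and Csf2rb most like its neighbour Csf2rb2 (r = 0.913), then Ccl9, Gm46224 and Naip5. Among the 4 genes most like Csf2ra were Nfam1, Lst1 and Fcer1g. Csf1r went with Lrrc25 (r = 0.892), Wfdc17, Tcirg1 and Clec4n, and Csf3 with Met (r = 0.913), Cxcl3, Msr1 and Sh3bp2. The patterns of Csf1 (Spin4, r = 0.878, Plxdc2, Myo1d and Amigo1) and Csf2 (Ankrd1, r = 0.851, Moxd1, Mylk2 and Barx2) had the loosest matches.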

How the data were processed

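The authors aligned and counted reads with Cell Ranger 6.0.0 on mm10 and worked in Seurat 4.1.0, per the submitters' processing notes, and deposited for each of the 4 libraries a matrix of UMI counts per gene and barcode. The counts are not normalised. Libraries held 47819046 to 99849070 UMIs in 10000 to 10003 barcodes, and 7340 to 9485 barcodes passed the limits. The methods of the study give 2 animals a group, and p-values measure the spread between these libraries.

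Counts were summed per gate and library and tested with edgeR 4.0.16 in R 4.3.3 (TMM factors, filterByExpr, quasi-likelihood F test, Benjamini-Hochberg adjustment over all genes), which gave log2 fold changes. Tests of HLU against Ctrl needed 20 cells in every library, and osteoblasts and stromal cells, which had fewer, were fitted as well. Contrasts between gates used the libraries with 20 or more cells of both gates and had the library as a term. Conventional dendritic cells, and basophils and mast cells, were thus compared in the HLU libraries only, and macrophages in Ctrl 2 and HLU 2. The osteoblast contrast left out HLU 2, and the stromal contrast left out HLU 1. DESeq2 1.42.0 was an alternative, with other filters, TMM left out, doublets (scrublet in scanpy 1.11.5) or cells of mixed markers left out, a replicate block, and each library left out in turn. The test was also run on simulated counts with a fixed spread between libraries. That run does not give the error rate of the test in these libraries. Exact tests and intervals came from scipy 1.17.1 in Python 3.11.15, and gene positions from GENCODE M21.

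Genes named in the text are the 8 members, Csf2rb2, at most 5 called partners with the smallest adjusted p in each contrast, and the 4 genes most like each member, with markers named only to check a gate. Some results that this rule selects are not reported here. Members, marker lists and partner lists were chosen with earlier results of these data known.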

Additional observations from a re-analysis of the deposited data

Results flagged for a closer look

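The Csf1 change (HLU against Ctrl, log2) went in opposite directions in 2 pairs of gates, with every HLU library above every Ctrl library in osteoblasts and stromal cells and below in haematopoietic progenitors and mature neutrophils. The gates did not divide into skeletal and blood cells in this, since basophils and mast cells were also higher in both HLU libraries (319 and 337 CPM against 115 and 186), and in granulocyte progenitors and immature neutrophils the groups overlapped, with HLU means of 1.45 and 1.28 times the Ctrl means. The change in osteoblasts exceeded that in haematopoietic progenitors by 4.12 and that in mature neutrophils by 2.86. The change in stromal cells exceeded them by 3.48 and 2.22. These differences were not tested, and none of the 4 changes was called on its own. The change in stromal cells was -0.28 without HLU 2. In haematopoietic progenitors of Ctrl 2 a single cell held 13 of the 16 Csf1 UMIs, so the order of the libraries in that gate rested on 1 cell.

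In barcodes that the limits left out, the cases listed were picked because both HLU libraries lay above both Ctrl libraries. No share over all genes was computed for them. In barcodes with over 10% mitochondrial UMIs the lower HLU level was 221 CPM for Csf2ra (Ctrl 145 and 98.1), 123 for Csf2rb (Ctrl 72.7 and 64.0) and 151 for Csf3r (Ctrl 55.6 and 104.5). In barcodes over 40000 UMIs it was 72.4 for Csf2rb (Ctrl 38.1 and 44.3) and 62.7 for Csf3r (Ctrl 26.7 and 15.7). In barcodes under 1000 UMIs it was 85.9 for Csf1r (Ctrl 39.2 and 43.2) and 93.8 for Csf2rb (Ctrl 40.0 and 47.8). The other receptors overlapped between groups in each class, as Csf3r did under 1000 UMIs (152 and 217 CPM in Ctrl, 378 and 86.9 in HLU). Some counts were small, with 7 and 12 Csf3r UMIs in the Ctrl barcodes over 40000 UMIs. The number of barcodes left out differed widely between libraries, from 6 to 230 over 40000 UMIs and from 267 to 2585 under 1000 UMIs.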

How the results depend on the processing

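With 2 libraries a group, leaving out 1 library moved most counts. The count of all genes called moved with the setting too, as given below, so counts of members are not read as results about the members. Over all passing barcodes 0 to 6 members were called with 1 library left out. Within the 8 gates with 20 or more cells in every library, where none was called, DESeq2 called 1 (and 1 each in osteoblasts and stromal cells, which had fewer), a fit without a filter on low counts 10, and fits with 1 library left out 0 to 18. Osteoblasts against chondrocytes gave 3 members without the filter and 0 to 2 with 1 library left out, and stromal cells against chondrocytes 6 and 1 to 4. Some values turned in sign with 1 library left out. Csf3 over all barcodes ranged from -0.42 to 4.97, Csf3r in granulocyte progenitors from -0.047 to 0.86, Csf1 in stromal cells from -0.28 to 2.24 and Csf2ra in stromal cells from -0.53 to 0.81. Without cells of mixed markers Csf2rb in chondrocytes stood at -0.48 and Csf2ra in stromal cells at -0.13. With the 10 cells holding most Csf3 left out of each gate, the difference in its share in monocyte, macrophage and osteoclast gates was -15.8 percentage points. The cause of these changes was not tested.

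The count of all genes called also depended on the setting. It ranged from 848 to 7726 over all barcodes, 0 to 968 in haematopoietic progenitors, 0 to 3060 in granulocyte progenitors, 15 to 3582 in immature neutrophils, 9 to 3593 in mature neutrophils, 0 to 3896 in monocytes, 4 to 1395 in B cells, 3 to 382 in T and NK cells, 0 to 602 in chondrocytes, 0 to 879 in osteoblasts and 9 to 572 in stromal cells. Between gates it ranged from 0 to 1810 for osteoblasts and 893 to 4041 for stromal cells against chondrocytes, and from 1024 to 1941 for dendritic cells against monocytes. With the replicate block 5 members were called over all barcodes and 0 within gates. The deviations of same-numbered libraries correlated at -0.08 over all barcodes, from -0.13 in chondrocytes to 0.24 in granulocyte progenitors. These values cannot show whether such libraries share more than a number, which was not tested. In chondrocytes the crossed pairing, added after seeing the data, called 258 genes against 55 with the block. Csf2 and Il34 had few UMIs in the HLU libraries, which also held few skeletal cells, so their levels there are uncertain.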
